A study of Mus musculus with 3 samples.

Results

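Mitochondrial complex I genes were described here across the Flag-Bcl11a peak lists of mouse blood stem and progenitor cells. They were taken as the protein-coding genes of the RefSeq table for GRCm38.p6, the assembly behind mm10, whose symbols start with Nduf, which gave 49 of 21887 protein-coding genes. By symbol, 11 were core subunits (Ndufs and Ndufv), 30 accessory subunits (Ndufa, Ndufb and Ndufc) and 8 assembly factors (Ndufaf). They were read in 3 CUT&Tag libraries of LSK cells (lineage-negative, with Sca-1 and Kit on the surface) sorted from bone marrow of knock-in mice whose Bcl11a, a zinc finger repressor, carries an N-terminal Flag epitope. CUT&Tag uses an antibody to bring a transposase to a chromatin protein and sequences the DNA cut nearby. The labels call the genotype wildtype, give no age, sex or treatment, and do not say whether the libraries came from separate or pooled animals, so SDs cover the spread between these libraries only. All 3 libraries belong to a single group. No untagged library was analysed here, and whether signal at these genes depends on the tagged protein was not tested. Because the cells were assayed in bulk, strong signal in few cells and weak signal in many cannot be told apart.

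Libraries 1, 2 and 3 held 38739, 36466 and 43469 peaks, and overlapping peaks joined into 60816 regions. Those with peaks from all 3 libraries, 22987 in number, are called reproducible. Genes with such a region at most 1 kb from either outer end are called occupied. The value at a gene is the authors' own fold enrichment for the strongest such region: summit pileup (fragments stacked at the summit) over the peak caller's local background. Peaks at marker genes were checked against the cell label, as no RNA data were analysed here. Of all protein-coding genes, 45.2% were occupied, and whether the short marker lists differed from that share was not tested. Of 7 LSK markers, 5 were occupied, Kit, Cd34, Flt3 and Procr among them, while Ly6a, which encodes Sca-1, had a peak in 1 library and Slamf1 had none. Of 10 markers of mature T, B, myeloid and erythroid cells, only the B cell gene Cd79a was occupied, at 3.90 ± 0.641 (SD, n = 3).

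Complex I, the NADH:ubiquinone oxidoreductase, is the entry point of the respiratory chain: it takes electrons from NADH, passes them along iron-sulphur clusters to ubiquinone and pumps protons across the inner mitochondrial membrane. Its catalytic core is conserved from bacteria, with part of the core encoded in mitochondrial DNA and the rest in the nucleus. Accessory subunits surround this core in animals, and assembly factors help build the complex without staying in it. Blood stem cells are known to rely less on respiration than their progeny, and progenitors raise it as they differentiate.

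Promoter windows are printed for the members at the extremes of the signal: the strongest member of each class, the weakest accessory member and the assembly factor gene without a peak. Each runs 5′ to 3′ from 250 bases before to 50 bases after the annotated start, from RefSeq on GRCm38.p6. Capitals mark matches on either strand to CCGGAA (an ETS factor core), TGACCA (reported for the BCL11A zinc fingers), CCAAT (an NF-Y box), GGGCGG (a GC box) or the palindromic NRF1 motif.
Ndufv3, core, chr17:31519865-31520164, plus strand: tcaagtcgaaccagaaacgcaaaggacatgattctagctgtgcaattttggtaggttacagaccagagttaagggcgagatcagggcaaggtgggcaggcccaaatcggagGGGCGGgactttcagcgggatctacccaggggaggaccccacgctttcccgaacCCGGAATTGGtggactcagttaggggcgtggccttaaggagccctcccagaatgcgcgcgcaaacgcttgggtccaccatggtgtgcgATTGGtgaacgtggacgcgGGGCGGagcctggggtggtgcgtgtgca
Ndufa4, accessory, chr6:11907401-11907700, minus strand: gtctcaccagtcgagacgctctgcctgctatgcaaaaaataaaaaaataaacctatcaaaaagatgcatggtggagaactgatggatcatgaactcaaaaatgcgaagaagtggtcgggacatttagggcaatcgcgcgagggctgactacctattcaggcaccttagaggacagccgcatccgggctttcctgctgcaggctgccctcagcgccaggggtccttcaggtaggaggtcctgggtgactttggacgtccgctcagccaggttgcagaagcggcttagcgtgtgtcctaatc
Ndufb10, accessory, chr17:24724374-24724673, minus strand: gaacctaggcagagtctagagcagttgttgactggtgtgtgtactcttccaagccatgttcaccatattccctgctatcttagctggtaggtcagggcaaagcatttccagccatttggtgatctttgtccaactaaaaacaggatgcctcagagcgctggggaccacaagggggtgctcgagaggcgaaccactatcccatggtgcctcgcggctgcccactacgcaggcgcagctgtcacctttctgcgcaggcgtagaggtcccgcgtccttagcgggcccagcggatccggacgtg
Ndufaf2, assembly, chr13:108158576-108158875, minus strand: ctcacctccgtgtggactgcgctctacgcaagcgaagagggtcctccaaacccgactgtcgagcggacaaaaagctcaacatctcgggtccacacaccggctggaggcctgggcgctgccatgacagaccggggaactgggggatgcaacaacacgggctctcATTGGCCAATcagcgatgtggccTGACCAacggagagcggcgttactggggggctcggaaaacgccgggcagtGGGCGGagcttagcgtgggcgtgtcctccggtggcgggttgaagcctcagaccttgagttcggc
Ndufaf1, assembly, chr2:119662785-119663084, minus strand: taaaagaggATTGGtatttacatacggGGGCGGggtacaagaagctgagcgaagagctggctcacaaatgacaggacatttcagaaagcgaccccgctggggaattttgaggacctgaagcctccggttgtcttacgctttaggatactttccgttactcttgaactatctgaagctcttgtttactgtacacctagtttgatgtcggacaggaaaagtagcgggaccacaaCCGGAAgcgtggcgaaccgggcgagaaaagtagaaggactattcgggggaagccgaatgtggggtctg
The Ndufa4 window, under the strongest peak of the family, held no match, and neither did that of Ndufb10. Ndufv3 held 5 matches, Ndufaf2 held 4 with the only TGACCA of these windows, and Ndufaf1 held 3.

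Most complex I genes were occupied. A reproducible region lay at an end of 36 of 49 members (73.5%), against 45.2% of all protein-coding genes. Without regions shared with another coding gene end the excess was far smaller, with 18 of 49 members against 32.6% of all genes. Each library taken singly had a peak at 41 members (83.7%), against 50%, 52.5% and 53.9% of all protein-coding genes in libraries 1, 2 and 3. The shares by class were 8 of 11 core genes (72.7%), 23 of 30 accessory genes (76.7%) and 5 of 8 assembly factor genes (62.5%), each above the share of all genes. The median fold enrichment of occupied members was 7.71, 8.31 and 7.43 in libraries 1, 2 and 3, against 7.38, 7.65 and 7.14 for all other occupied genes, a mean difference of 0.42 ± 0.21 (SD, n = 3). Summit pileup over each library's lowest background showed no such excess, with medians of 21.4 ± 2.59 for members and 21.6 ± 1.79 for all other occupied genes. Of the 36 occupied members, 19 (52.8%) lay above the overall median of 7.41. Members differed among themselves from 4.60 to 17.5 in mean fold enrichment, a wider range than the spread of any single member between libraries. The coefficient of variation over libraries had a median of 12.5%, from 3.01% for Ndufc2 to 24.4% for Ndufs8. Across the 36 members, fold enrichments of library pairs had a Spearman's rho of 0.88, 0.78 and 0.82 for libraries 1 and 2, 1 and 3, and 2 and 3, a description over genes that share libraries.

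**Figure D1:**
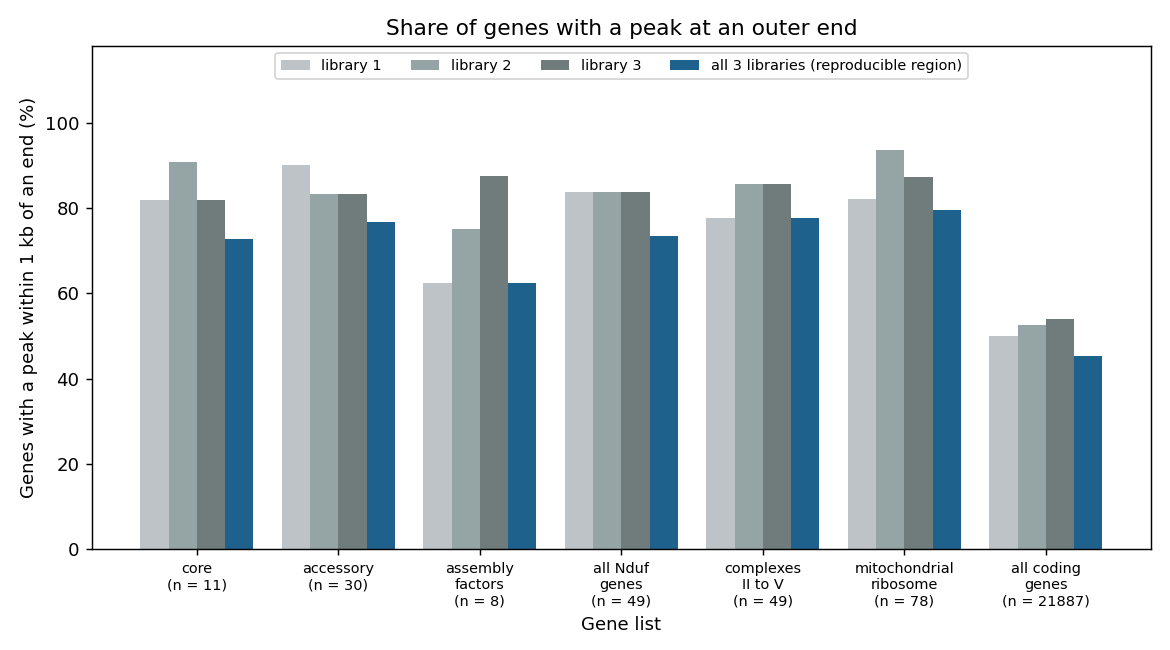
Bars give the percentage of genes in each list with a peak within 1 kb of an outer end, for each library and for reproducible regions in all 3. The complex I classes stand at 62.5% to 76.7% for reproducible regions, and all protein-coding genes at 45.2%.

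Among core genes, the flavoprotein subunits stood highest. Ndufv3, a small subunit at the NADH-oxidising tip, had a fold enrichment of 12.9, 9.88 and 9.94 in libraries 1, 2 and 3 (10.9 ± 1.70, SD, n = 3). Ndufv1, which binds NADH and the flavin cofactor, had 10.7, 11.3 and 9.63 (10.5 ± 0.826). Its neighbour in the protein, Ndufv2, carries an iron-sulphur cluster and had 9.50, 10.5 and 9.78 (9.93 ± 0.508). The 3 genes overlapped one another in their library values, and all exceeded at least 79.2% of occupied protein-coding genes. Ndufs7, which holds the last cluster before ubiquinone, had 9.15, 9.16 and 7.03 (8.45 ± 1.23), with summit pileups of 67, 93 and 90 fragments, the highest of the core class. Ndufs1, the largest subunit of the electron input arm, averaged 7.89 ± 0.930, and Ndufs8, another cluster-binding subunit, had 8.67, 7.50 and 5.25 (7.14 ± 1.74). Lowest of the class was Ndufs3, a subunit of the ubiquinone-reducing part, with 4.84, 4.99 and 3.97 (4.60 ± 0.550), and pileups of only 9, 11 and 11 fragments. In every library it lay below the 3 flavoprotein genes.

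The symbols Ndufs and Ndufv also cover proteins that are not part of the conserved catalytic core: Ndufs4, Ndufs5, Ndufs6 and Ndufv3 are accessory by function. With these set apart, a split made after the values were seen, all 7 conserved core genes were occupied, and of the 4 others only Ndufv3 was. Of all protein-coding genes, 45.2% were occupied. For 4 of the 7 the region was shared with another coding gene end, and without shared regions only Ndufs7, Ndufv1 and Ndufv2 remained. Moving Ndufs4, Ndufs5, Ndufs6 and Ndufv3 made the accessory count 24 of 34.

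Among accessory genes, Ndufa4 had the strongest signal of the family. Its product, first assigned to complex I, is now regarded as a subunit of cytochrome c oxidase. Fold enrichment was 15.3, 17.9 and 19.3 in libraries 1, 2 and 3 (17.5 ± 2.0, SD, n = 3), higher than at 99.8% of occupied protein-coding genes, and pileups were 55, 76 and 111 fragments. The region (chr6:11907076-11907964) covered the annotated start of the gene. No library value of any other member reached the lowest of Ndufa4. Next came Ndufa12, a subunit of the matrix arm, with 9.89, 12.8 and 12.6 (11.7 ± 1.61). Ndufb11, an X-linked membrane arm gene whose human counterpart is linked to a sideroblastic anaemia, had 10, 13.8 and 11.4 (11.7 ± 1.92). Ndufa8, which faces the intermembrane space, had 11.6, 11.1 and 10.6 (11.1 ± 0.477). These 3 genes overlapped in their library values. Ndufa11, a membrane arm subunit, averaged 10.4 ± 1.12, with pileups of 60, 100 and 110 fragments.

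Another 12 accessory genes lay between 5.90 ± 1.19 (Ndufa10) and 10.7 ± 0.982 (Ndufb1), the others being Ndufa2, Ndufa6, Ndufa7, Ndufb2, Ndufb4, Ndufb5, Ndufb6, Ndufb7, Ndufb8 and Ndufb9. Weaker accessory genes included both Ndufc genes, which encode small membrane subunits: Ndufc2 averaged 6.84 ± 0.206 and Ndufc1 5.98 ± 0.479 (SD, n = 3). Ndufab1, the mitochondrial acyl carrier protein, which also serves lipoic acid synthesis, stood near the middle with 7.67, 9.18 and 6.69 (7.85 ± 1.25). Ndufa13, known also as the cell death regulator GRIM-19, had 7.63, 8.0 and 6.20 (7.28 ± 0.953). The lowest were Ndufa3 with 4.24, 5.69 and 6.41 (5.44 ± 1.11) and Ndufb10 with 5.42, 4.27 and 4.33 (4.67 ± 0.646). Neither group of library values reached those of Ndufa12, Ndufb11 or Ndufa8. By prefix, 11 of 15 Ndufa genes, 10 of 13 Ndufb genes and both of 2 Ndufc genes were occupied.

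**Figure D2:**
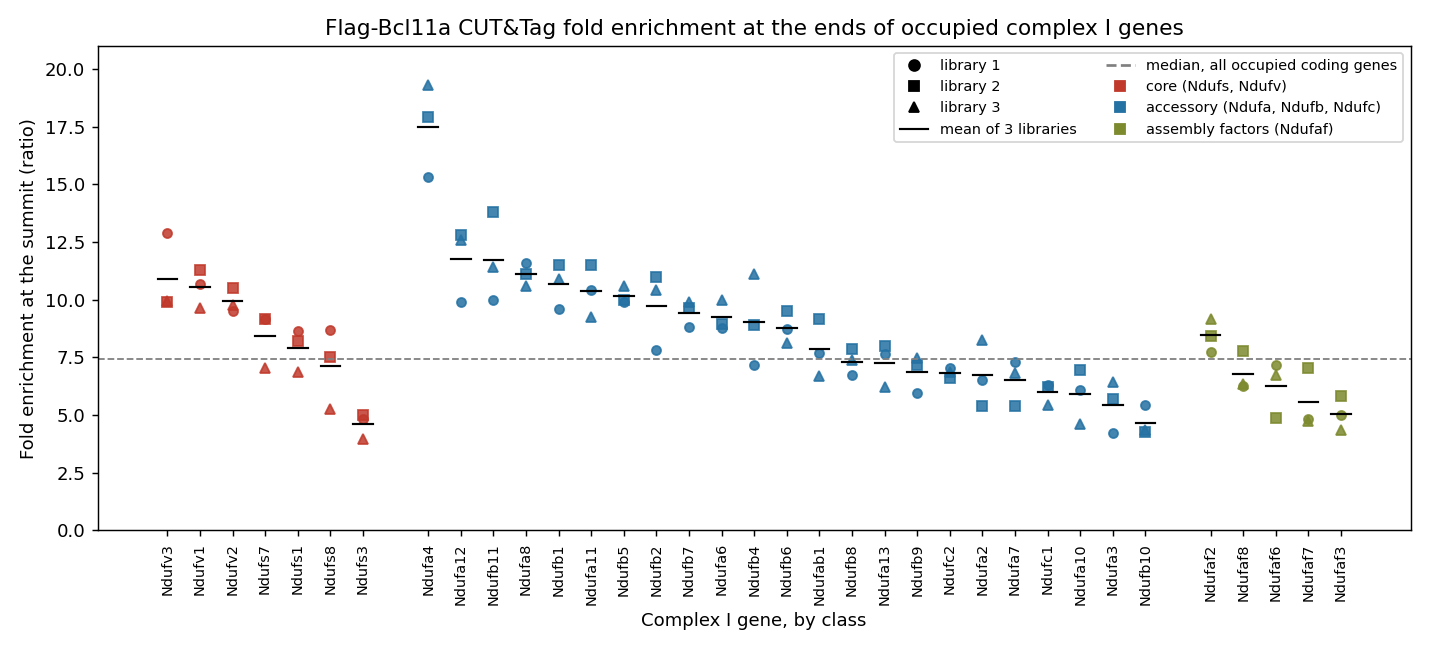
Each column is an occupied complex I gene, grouped by class (1 core gene is not drawn), with its fold enrichment at the summit (ratio) in libraries 1 to 3 as symbols and their mean as a bar. Ndufa4 stands alone at 17.5, the other members lie between 4.60 and 11.7, and assembly factor genes lie mostly under the dashed median of 7.41.

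The 5 occupied Ndufaf genes carried weaker signal than the core and accessory classes by median fold enrichment. Assembly genes outside the Nduf symbols, given below, had a higher median than these. Ndufaf2, a paralogue of Ndufa12 that takes its place during assembly, was highest with 7.74, 8.44 and 9.17 (8.45 ± 0.714, SD, n = 3). Ndufaf8, the partner of Ndufaf5, had 6.27, 7.78 and 6.35 (6.80 ± 0.850). Ndufaf6, which resembles phytoene synthases, had 7.15, 4.87 and 6.74 (6.25 ± 1.22). Ndufaf7, a methyltransferase, had 4.84, 7.06 and 4.75 (5.55 ± 1.31), with pileups of 9, 16 and 13 fragments. Ndufaf3, an early factor of the ubiquinone module, had 4.99, 5.81 and 4.37 (5.06 ± 0.722). Of these 5 genes, only Ndufaf2 lay above the median of all occupied genes.

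The class medians of core and of accessory genes exceeded that of Ndufaf genes in every library, but core and accessory were not separated. By prefix, Ndufa, Ndufb and Ndufv genes stood above Ndufaf genes in every library. Ndufs genes fell below in library 3 (5.26 against 6.35). Ndufc genes fell below in libraries 2 (6.43 against 7.06) and 3 (6.15 against 6.35). Over libraries the median fold enrichment was 8.18 ± 1.08 for core, 8.29 ± 0.638 for accessory and 6.56 ± 0.437 for assembly factor genes (SD, n = 3). Accessory minus assembly was 1.40, 1.88 and 1.91 in libraries 1, 2 and 3, with a mean of 1.73 ± 0.29. Core minus assembly was 2.64, 1.61 and 0.60. Core minus accessory changed sign, with 1.24, -0.27 and -1.31. No p-value was taken over members, and the assembly median rests on 5 genes. By summit pileup the order differed: core genes had medians of 33.5, 39.5 and 49.5 fragments, accessory genes 22.0, 29.0 and 35.0, and assembly factor genes 16.0, 22.0 and 26.0. Divided by each library's lowest background (1.07, 1.41 and 1.95 fragments per base), core genes stood at 28.3 ± 2.98, accessory genes at 19.7 ± 1.51 and assembly factor genes at 14.7 ± 1.17, against 21.6 ± 1.79 for all occupied genes.

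**Figure D3:**
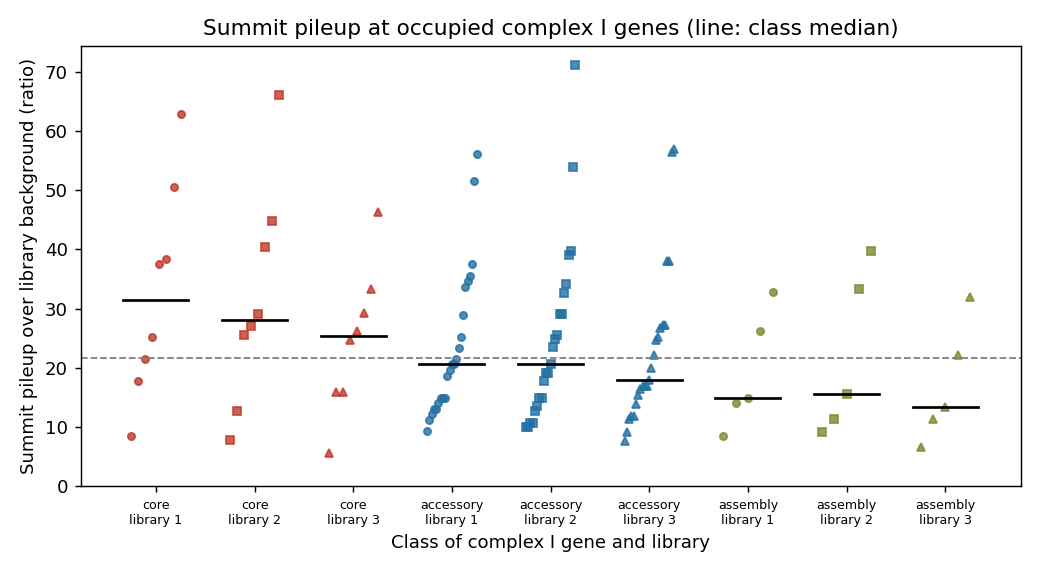
Points are occupied genes, with summit pileup over the library's lowest background (ratio) by class and library, black lines class medians and the dashed line the value for all occupied genes, 21.6. In each library the core median is highest and the assembly factor median lowest.

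The 13 members without a reproducible region were mostly weak rather than empty. Peaks of 1 or 2 libraries lay at an end of 10 of them, with fold enrichments of 3.51 to 7.74 and pileups of 8 to 21 fragments. Ndufs5, an accessory subunit of the intermembrane space, had peaks in library 1 (4.84) and library 3 (5.49) over the same end. Ndufs4, whose loss in mice is a model of Leigh syndrome, had a peak in library 2 only (5.40), 733 bp from its end. Ndufs6, a zinc-binding subunit, likewise had one in library 2 only (3.51). All 3 core symbols without a reproducible region are thus accessory by function.

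Ndufa5, a subunit of the matrix arm, had peaks in library 1 (6.77) and library 3 (5.43). Ndufa1, an X-linked membrane subunit, had a peak of 7.74 in library 1 and none in the others. Ndufa9, which sits by the ubiquinone channel, had one of 5.09 in library 3. Ndufb3, a membrane arm subunit, had peaks in libraries 1 (4.35) and 2 (3.74) that did not overlap. Ndufa4l2, the hypoxia-induced paralogue of Ndufa4, had peaks of 5.23 and 3.55 in libraries 1 and 2, both 615 bp from the end. Among assembly factors, Ndufaf5, which hydroxylates an arginine of Ndufs7, had 5.40 in library 2 and 6.11 in library 3. Ndufaf4, a partner of Ndufaf3, had 3.73 in library 3 only. Peaks were absent from both ends in all libraries for 3 members: Ndufaf1, which works with Ecsit and Acad9 on the membrane arm, and Ndufb4b and Ndufb4c. The last 2 are annotated genes of 471 and 485 bp named as relatives of Ndufb4, which was itself occupied (9.04 ± 1.98, SD, n = 3). The handling of reads that match several copies was not stated in the labels, so their lack of peaks is uncertain.

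Peaks of complex I genes sat on transcription starts. A start and strand were given for 31 of the 36 occupied members, and in 29 of these (93.5%) the summit of the strongest library lay within 250 bp of a start, against 67.7% of all occupied genes with an entry. The median distance was 88 bp, against 158.5 bp for all occupied genes. The summit was upstream in 17 members and downstream in 14. The region covered the start itself in 30 of 31 members, the exception being Ndufa13, whose summits lay at -977, -1062 and -977 bp from the start (negative is upstream), in a region shared with Tssk6. The other member whose strongest library had its summit beyond 250 bp was Ndufa11, at -619, -442 and -440 bp, in a region shared with Vmac. A region at the finish as well was found in 3 members: Ndufa8, Ndufb6 and Ndufaf8. The share of all occupied genes with a region at the finish was not counted, so whether this is few or many cannot be said. Counted by starts in place of outer ends, 31 of 42 members with an entry were occupied, against 46.9% of all genes with one.

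**Figure D4:**
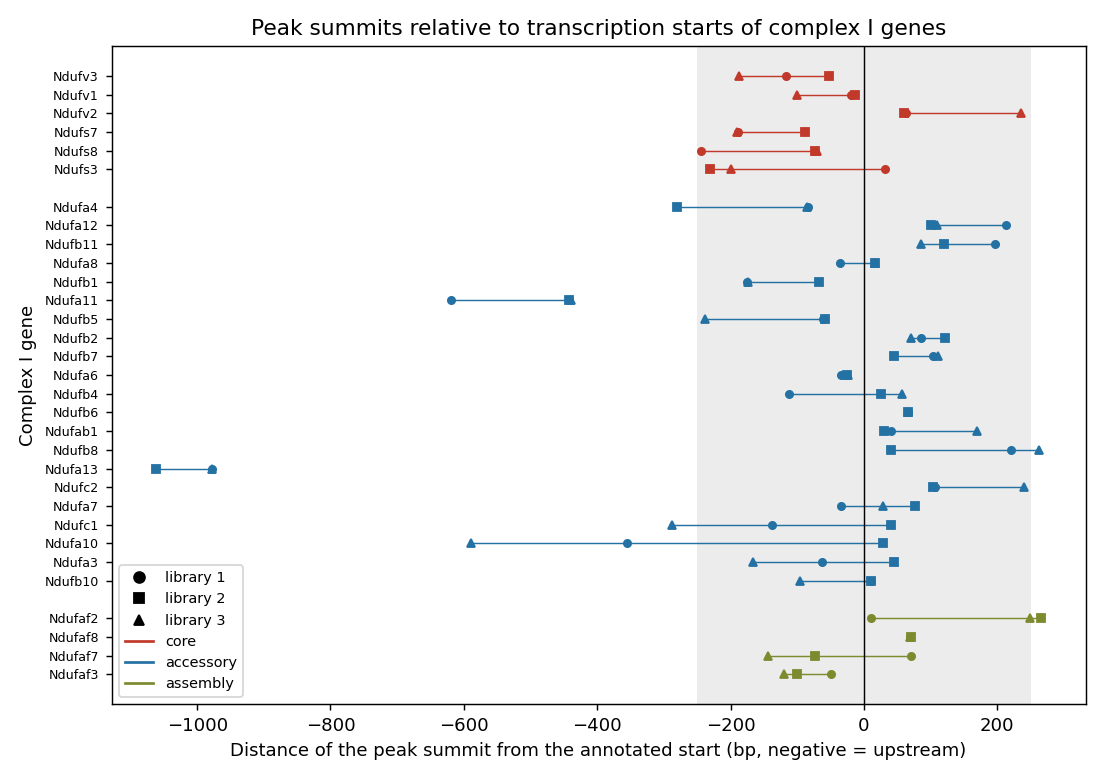
Rows are occupied complex I genes with an annotated start, and symbols give the distance in bp from that start to the peak summit in each library, with upstream to the left. Most symbols fall in the shaded band of 250 bp to either side, and Ndufa11 and Ndufa13 lie upstream of it.

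Many of these regions were shared with a neighbouring gene. The region of 20 of the 36 occupied members (55.6%) also came within 1 kb of an end of another protein-coding gene, against 29.4% of all occupied genes. The share was 5 of 8 for core, 11 of 23 for accessory and 4 of 5 for assembly factor genes. Ndufa4 shared its region with Phf14 (a chromatin reader gene), Ndufv3 with Wdr4 (a tRNA methyltransferase subunit) and Ndufaf2 with Ercc8 (a DNA repair gene). Ndufs1 lay beside the translation factor gene Eef1b2, and 2 accessory members lay beside ribosomal genes, Ndufa7 with Rps28 and Ndufb5 with the mitochondrial Mrpl47. Ndufaf7 shared with Cebpz, Ndufaf3 with Dalrd3 and Ndufb11 with Rbm10. Peaks in such regions cannot be assigned to one gene of the pair. Shared and unshared members had median fold enrichments of 7.21 and 8.62, where all occupied genes had 7.88 and 7.20. Shared and unshared core genes had medians of 7.14 (n = 5) and 9.93 (n = 3). Among accessory genes the order was reversed, with 10.1 (n = 11) and 8.32 (n = 12). Shared assembly factor genes had a median of 6.18 (n = 4), and the only unshared one stood at 6.25. With so few genes no trait of a class can be read from these medians. When shared regions were left out, 18 of 49 members were occupied, only slightly above the 32.6% of all genes.

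Searched in the same 300-base windows on either strand, the motifs were in some cases more and in others less frequent in members than in all genes. CCGGAA stood in 12 of 42 members with a window (28.6%), against 20.9% of all protein-coding genes with one and 31.8% of the occupied ones. By class it stood in 5 of 9 core windows (Ndufv1, Ndufv3, Ndufs3, Ndufs7 and Ndufs8), 5 of 26 accessory and 2 of 7 assembly factor windows. TGACCA stood in 6 of 42 (14.3%), against 14.3% of all windows. CCAAT stood in 33.3% of members' windows, against 42.3% of all windows, and GGGCGG in 50% against 49.2%. Among occupied genes alone, GGGCGG stood in 54.8% of members' windows, against 71.1% of all, CCAAT in 35.5% against 43.4%, CCGGAA in 32.3% against 31.8%, and TGACCA in 16.1% against 13.5%. The NRF1 palindrome, the motif of a known activator of respiratory genes, stood in 3 windows (7.14% against 1.47%): those of Ndufa11, Ndufaf4 and Ndufaf5, of which only Ndufa11 was occupied. Each motif was searched on its own, so overlapping matches of different motifs were each counted. A match in a window is a run of letters, and no binding site was mapped by it. Median GC content was 59.3% in members' windows, against 56.3% in all windows and 62.0% in those of all occupied genes.

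Farther reproducible regions, over 1 kb and up to 20 kb from the nearer end, lay near 29 of 49 members (59.2%), against 49.7% of all protein-coding genes. They numbered 50, and 32 of them lay within 1 kb of an end of another protein-coding gene. A farther region at no coding gene end lay near 15 members (30.6%), against 35.0% of all genes. By class, 7 of 11 core, 6 of 30 accessory and 2 of 8 assembly factor genes had at least 1. Only 2 of the 50 regions had their summit inside the member. One of them was in Ndufa4l2 (chr10:127512690-127513160), with 3.54, 3.02 and 2.84 (3.13 ± 0.366, SD, n = 3), weaker than the family's median at gene ends.

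Among the members with most farther regions were Ndufs8 with 5, and Ndufs7, Ndufa13 and Ndufb10 with 3 each. Around Ndufs8 the regions lay at or in Tcirg1 and Aldh3b1, the strongest at 9.77 ± 1.14. Those near Ndufs7 lay at Gamt and in Dazap1, with pileups of up to 207 fragments. A region 16092 bp from Ndufa13, at 7.13 ± 1.49, lay inside Gatad2a, a NuRD corepressor gene. The strongest farther region at no coding gene end, at 11.7 ± 0.634, lay 6125 bp from Ndufa7 within Kank3. Around the 13 unoccupied members there were 2 farther regions near Ndufa4l2, and 1 each near Ndufaf1 (at the end of Rtf1) and Ndufs6 (at the end of Mrpl36).

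**Figure D5:**
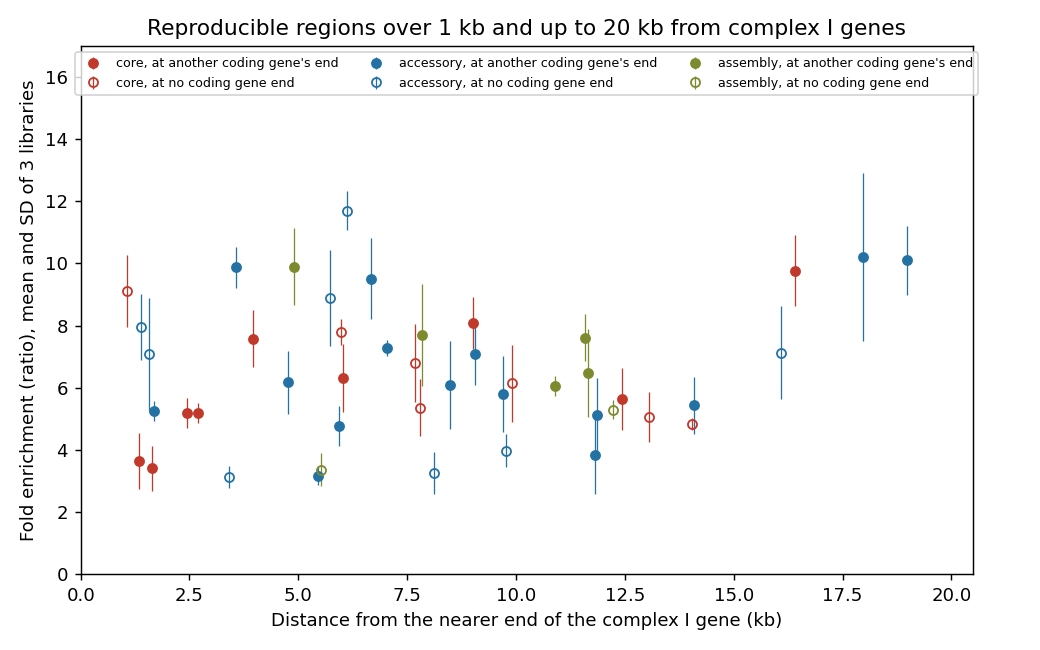
Points are reproducible regions by distance (kb) from the nearer end of a complex I gene and fold enrichment (mean and SD of 3 libraries), filled where they lie at an end of another protein-coding gene and open elsewhere (those of 1 core gene are not drawn). The highest point drawn is 11.7 at 6125 bp, with others at 9.11 (1054 bp) and 10.2 (17970 bp).

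Of 14 assembly and biogenesis genes outside the Nduf symbols, 8 were occupied (57.1%, against 45.2% of all genes). Their median fold enrichment was 7.72, 9.72 and 8.42 in libraries 1, 2 and 3. The mean of 8.62 ± 1.01 compared with 6.56 for Ndufaf, 8.18 for core and 8.29 for accessory genes. By summit pileup over the lowest background they stood at 17.7 ± 3.56, above Ndufaf (14.7) but below accessory (19.7) and core genes (28.3). By that measure the weaker signal was not limited to the Ndufaf genes. Timmdc1, a membrane arm assembly factor, led with 7.38, 16.5 and 10.7 (11.5 ± 4.61, SD, n = 3), highest in library 2. Foxred1, an oxidoreductase needed for assembly, had 13.4, 11.2 and 9.53 (11.4 ± 1.97). Ecsit and Acad9, the partners of Ndufaf1, were occupied at 8.64 ± 0.995 and 5.20 ± 0.943, though Ndufaf1 was not. Nubpl, which delivers iron-sulphur clusters to complex I, had no peak at either end. Among 14 regulators of respiratory genes, 11 were occupied (78.6%, against 45.2% of all genes), 4 of these in a region shared with another coding gene end. Tfb2m and Tfb1m stood highest, at 13.1, 15.4 and 16.0 (14.8 ± 1.52) and 13.0, 13.0 and 16.9 (14.3 ± 2.25), followed by Gabpb2, a subunit of an ETS factor complex, at 9.56, 11.4 and 10.6 (10.5 ± 0.944). Nrf1 itself had 5.73 ± 1.83, and Gabpb1 had no peak at either end.

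Related families had shares near that of complex I genes. Respiratory complexes II to V had 38 of 49 genes occupied (77.6%) and mitochondrial ribosomal proteins 62 of 78 (79.5%). Median fold enrichment of complex I genes exceeded that of complexes II to V by 0.39, 0.70 and 0.24 in libraries 1, 2 and 3, and that of mitochondrial ribosomal proteins by 0.20, 0.04 and 0.30. Shared regions were found for 16 of 38 occupied genes of complexes II to V (42.1%) and 32 of 62 of the mitochondrial ribosome (51.6%).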

How the data were processed

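Peaks were deposited separately for the 3 libraries. The submitters' processing notes name mm10, Bowtie2, SAMtools and MACS2, without versions. Per peak, the authors deposited a fold enrichment (a ratio), −log10 p, −log10 q and a score. The deposited score, 10 times −log10 q without decimals, was not used. The lowest deposited −log10 q was 1.30, 1.30 and 1.31, a q of 0.05. Fragment totals are not given in the files.

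Summit pileup and background were solved from fold enrichment, as pileup plus 1 over background plus 1, and from −log10 p as a Poisson tail, which gave a value for 38643, 36353 and 43350 peaks, 100% of them whole within 0.05 fragments. Autosomal, X and Y peaks were joined at 1 bp of overlap. The RefSeq table gives outer gene ends without exons, and the promoter table gave starts and strands for 42 of 49 members. Python 3.11.15, numpy 2.4.6, pandas 2.3.3 and scipy 1.17.1 were used, and the joining and solving steps were tested on simulated data.

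No test between groups was possible, since the 3 libraries form 1 group, and none was run over genes. The members and lists were chosen with earlier results of these data known. Values by library were given for the 4 strongest and 2 weakest occupied members of each class, members with unreproduced peaks, members that share a region with another member (none did), the 5 members with most farther regions and the 5 strongest pathway genes. Other genes named were chosen after their values were seen. For 2 genes, 1 of them a member, the values are not reported here; both remain in the counts and medians. Coa1, listed among assembly genes, was not matched in the gene table. Alternatives covered the window, the peak threshold, the overlap rule and the libraries used.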

Additional observations from a re-analysis of the deposited data

How the results depend on the processing

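Of 80 comparisons of the counts and medians with alternative settings, 72 kept a count within 1.5 times its reported value or a median within 1 SD, and 8 did not. For medians with 1 library left out this rule could hardly be broken, so those comparisons say little about stability. With the 10000 strongest peaks of each library, 17 of 49 members were occupied (against 20.6% of all genes): 5 core, 11 accessory and 1 assembly factor gene. The core median was then 9.67 and the accessory median 10.5, and 14 members had a farther region; this setting keeps fewer, stronger peaks by construction. Leaving out regions shared with another coding gene end, a choice made after seeing the data, gave 18 members (against 32.6% of all genes). Leaving out 1 library in turn gave 37, 38 and 37 members without libraries 1, 2 and 3, against 48.8%, 46.6% and 46.2% of all genes, with 8 to 9 core, 23 to 24 accessory and 5 to 6 assembly factor genes. Without 1 library the medians were 7.76 to 8.79 for core, 8.06 to 8.60 for accessory and 6.31 to 6.67 for assembly factor genes, and 31 members had a farther region. The share of all genes with a farther region was not counted under these settings, so the counts of 14 and 31 cannot be compared with it. Among the medians without 1 library, core exceeded accessory only without library 3 (8.79 and 8.28). A −log10 q of at least 5 lost Ndufa3, Ndufaf7 and Ndufs3, and regions in at least 2 libraries added Ndufa4l2, Ndufa5, Ndufaf5 and Ndufs5. Of 19 named members, none moved its mean fold enrichment by over 1 SD when a library was left out. Dropping 1 of 3 values cannot by itself shift their mean that far, so this outcome was nearly fixed beforehand and is no measure of stability. No paired analysis was possible because the replicate numbers belong to 1 group. A pileup of about 10 fragments, as at Ndufs3, limits what can be said of the weakest members.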

Other observations

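Complex I subunits encoded in mitochondrial DNA were outside the comparisons of nuclear genes. On the mitochondrial chromosome, libraries 1, 2 and 3 listed 8, 7 and 7 peaks, which covered 7579, 9114 and 9025 bp. Peaks overlapped mt-Nd1, mt-Nd2 and mt-Nd5 in every library and mt-Nd4 in libraries 1 and 3, and none overlapped mt-Nd3, mt-Nd4l or mt-Nd6. Their fold enrichments were low: the highest over mt-Nd1 was 1.73, 1.65 and 1.67, and over mt-Nd5 2.10, 1.82 and 2.04, below the lowest nuclear member.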
